A study of Mus musculus with 8 samples.

Results

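Ctnnb1, Axin1, Apc and Arid1a, 3 genes of the Wnt pathway and 1 of chromatin remodelling that are often altered in liver cancer, were followed through 8 mouse liver tumors by array comparative genomic hybridization. Each gene was taken as the array probes within 0.5 Mb of its position on the mm9 genome build. Ctnnb1 lies on chromosome 9 (window 120350000 to 121350000, 75 probes), Axin1 on chromosome 17 (25800000 to 26800000, 95 probes), Apc on chromosome 18 (33930000 to 34930000, 85 probes) and Arid1a on chromosome 4 (132770000 to 133770000, 99 probes). Together these windows hold 354 of the 170305 different probes on the array, with a median spacing between 9.11 and 11.8 kb. Within 0.05 Mb of the position, which approximates the gene itself, there were 9, 10, 7 and 11 probes in the same order. In the RefSeq order of genes Ctnnb1 lies between Rpl14 and Ulk4, Axin1 between Mrpl28 and Pdia2, Apc between Epb41l4a and Srp19, and Arid1a beside Pigv, so the levels are those of a neighbourhood with several genes. Exons and introns were not resolved.

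As background, Ctnnb1 encodes β-catenin, the transcriptional effector of canonical Wnt signalling. Without a Wnt signal, a complex built on the scaffolds Axin1 and Apc marks β-catenin for degradation. With a Wnt signal, β-catenin enters the nucleus and switches on genes that in the liver include those of the cells around the central vein. Arid1a is the DNA-binding subunit of a SWI/SNF complex, which moves nucleosomes. In liver cancer Ctnnb1 is known for activating mutations, and Axin1, Apc and Arid1a for loss of function. An array of this kind measures the amount of DNA and no sequence, so point mutations of any of the 4 genes are outside these measurements.

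The tumors came from 8 individual male FAH-/- mice, which cannot complete tyrosine breakdown for want of fumarylacetoacetate hydrolase, and were kept on NTBC (nitisinone) at 7.5 mg/L of drinking water until the drug was lowered to 2.5% of that dose for 6 to 12 months. The reference was liver DNA pooled from 6 male FAH+/+ littermates. Tumor DNA carried Cy5 and reference DNA Cy3 on every array, with 1.5 µg of DNA per labelling. No normal liver of a tumor-bearing mouse was on an array, so tumor and genotype cannot be told apart, and no error given here includes differences among control mice. Since the pool and the dye orientation were the same on all 8 arrays, a difference that all tumors share cannot be told apart from one of the pool or of the dyes. The targeted gene Fah was not analysed here, and the genotype is that of the labels.

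The values are mean log2 ratios of tumor over reference signal. Loss of 1 of 2 copies in every cell would give -1 and a gain to 3 copies would give 0.585. Copies per cell and the share of cells with a change cannot be told apart in bulk DNA. Each array was centred on the commonest level of its autosomal 1 Mb windows. Setting the array median to 0 instead would raise every level by 0.0203 to 0.233, and setting the peak of the probe density to 0 would raise it by 0.148 to 0.494. All arrays shared a probe-to-probe pattern, with correlations from 0.840 up to 0.915 among tumors 1 to 6 and from 0.668 up to 0.799 where a pair included tumor 7 or 8. A second scale was therefore used beside the first, in which the pattern of the other 7 tumors was subtracted from each array. On this second scale the noise between neighbouring probes fell from between 0.418 and 0.691 to between 0.168 and 0.240. By construction it removes what most tumors share at a probe and keeps what sets a tumor apart. Tumors 1 to 4 were on slide 1 and tumors 5 to 8 on slide 2, and the sample titles of tumors 7 and 8 carry another number prefix, whose meaning is not given. The median over the spots of an array of signal over local background was 4.27-fold to 11.1-fold for the reference and 4.17-fold to 6.56-fold for the tumors. Precision is limited by there being 8 arrays.

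The question for each gene was whether its neighbourhood was gained or lost, and whether it departed from its own chromosome. A level of at least 0.2 in size was counted as past the call size. With the shared pattern kept, 13 of 32 gene-by-tumor levels were past it downwards and 0 upwards, where 16.1% of levels of all 1 Mb windows were past it downwards and 7.33% upwards. Ctnnb1 made up 7 of the 13, Arid1a 3, Axin1 2 and Apc 1. Removing the pattern left 5 of 32 past it downwards and 1 upwards, against 14.6% and 4.86% of all windows. Of these, the downward levels were Arid1a in tumors 1, 6 and 8, Ctnnb1 in tumor 6 and Apc in tumor 3, and the upward one was Axin1 in tumor 5. The same 5 downward pairs were also past the call size with the pattern kept, where Axin1 in tumor 5 stood at 0.196. Tumors 2, 4 and 7 had none of the 4 genes past the call size on the second scale.

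**Figure D1:**
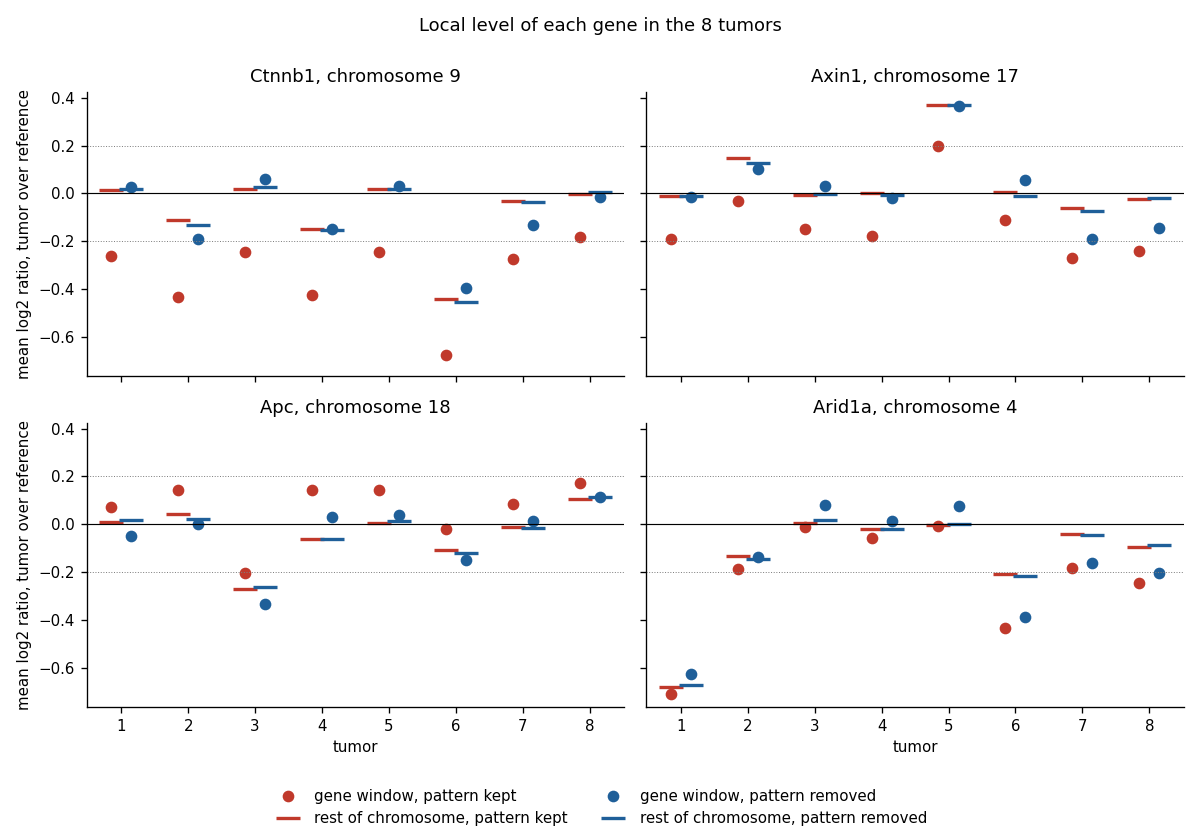
Mean log2 ratio of tumor over reference (vertical axis) of each gene window (points) and of the rest of its chromosome (bars) in tumors 1 to 8, with the shared probe pattern kept (red) and removed (blue); dotted lines mark 0.2 in size. With the pattern removed the largest departures from 0 were Arid1a in tumor 1 at -0.62, Ctnnb1 in tumor 6 at -0.40, Arid1a in tumor 6 at -0.39 and Axin1 in tumor 5 at 0.36.

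Ctnnb1, the effector of the pathway, was below the reference in 8 of 8 tumors with the pattern kept. The lowest level was -0.68 in tumor 6, the median -0.27 and the highest -0.18 in tumor 8. The mean was -0.34 ± 0.16 (SD, n = 8), with a limma adjusted p of 0.0106 over 2373 windows and a two-sided exact sign-flip permutation p of 0.0078, the smallest 8 tumors can give; with the peak of the probe density at 0 the sign turned, to 0.024. Of all windows, 8.60% were called lower and 5.73% higher by the same limma test. Of the 4 genes Ctnnb1 was the one that passed it, and the call was lost without tumors 7 and 8 (mean -0.38, limma adjusted p = 0.0600) and with the pattern removed, where the mean was -0.096 ± 0.15 (SD, n = 8, limma adjusted p = 0.418). There, tumor 6 stood at -0.40, tumor 2 at -0.19, tumor 4 at -0.15 and tumor 7 at -0.13, and the other 4 tumors lay between -0.016 and 0.058. Only tumor 6 was past the call size on that scale.

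Most of the pattern-kept deficit of Ctnnb1 was a difference from its own chromosome. The window was below the rest of chromosome 9 in every tumor, with a lowest difference of -0.32 in tumor 2, a median of -0.26 and a highest of -0.18 in tumor 8. The mean difference was -0.26 ± 0.041 (SD, n = 8, limma adjusted p = 4.54e-06), and 5 of 2369 autosomal 1 Mb windows (0.211%) had a mean as low or lower. Within 0.05 Mb of the gene position the mean level was -0.50 ± 0.16 (SD, n = 8) and every tumor was at -0.31 or below. In steps of 0.1 Mb across the window the mean was -0.64 just before the centre and -0.21 just after it. Beyond the centre it was -0.49 at 0.15 Mb and -0.16 at 0.25 Mb, so the steps rose and fell without a steady trend away from the gene. No step of the 10 lay above 0. With the pattern removed the same 10 steps lay between -0.12 and -0.068, and the mean difference from the chromosome was -0.0072 ± 0.050 (SD, n = 8, limma 95% interval -0.047 to 0.033, adjusted p = 0.999994). A low level of Ctnnb1 relative to its chromosome was thus seen in all 8 tumors on the first scale, and the second scale, which subtracts what the tumors share, cannot show one of that kind.

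The level of chromosome 9 itself set tumor 6 apart. On the pattern-removed scale the chromosome was a single segment at -0.46 in tumor 6, with the Ctnnb1 window 0.059 above the rest of it. Tumor 4 also had a single segment, at -0.15. In tumor 2 the last 22.9 Mb of the chromosome, which hold Ctnnb1, lay at -0.15 and the first 97.4 Mb at -0.13. Between them was a short segment of 0.661 Mb and 64 probes at 0.015. In tumors 1, 3 and 5 the segment with Ctnnb1 lay at 0.019, 0.027 and 0.017. No segment edge fell within 3 Mb of the gene in any tumor, and the nearest end was the last probe of the chromosome, 3.21 Mb away.

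On the pattern-removed scale Axin1, a scaffold of the complex that marks β-catenin for degradation, stood furthest above the reference in tumor 5. It was above the reference by less in tumor 2, and near or below it in the others. Tumor 5 stood at 0.36 and tumor 2 at 0.10 with the pattern removed. Tumors 1, 3, 4 and 6 lay between -0.018 and 0.056, tumor 8 at -0.14 and tumor 7 at -0.19. The mean was 0.023 ± 0.17 (SD, n = 8, limma adjusted p = 0.866). With the pattern kept, every level was lower by between 0.080 and 0.181, the mean was -0.12 ± 0.15 (SD, n = 8, limma adjusted p = 0.121), and tumors 7 and 8, at -0.27 and -0.24, were past the call size. Without tumor 5 that mean was -0.17 and passed (limma adjusted p = 0.0291). Its direction depended on the centring: it was 0.0098 with the array median at 0 (limma adjusted p = 0.903), and 0.25 with the peak of the probe density at 0, where it passed as higher (limma adjusted p = 0.00229).

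In tumor 5 the gain took in the whole of chromosome 17. Its 6548 probes formed a single segment at 0.37, and the Axin1 window differed from the rest of the chromosome by -0.0059 with the pattern removed. In tumors 1, 3, 4 and 6 chromosome 17 was also a single segment, between -0.011 and -0.0010. In tumor 2 the segment with Axin1, the first 47.9 Mb, lay at 0.12 and the last 43.9 Mb at 0.13. Axin1 was outside the short segment between them, of 0.336 Mb and 38 probes at 0.31. Tumors 7 and 8, with the lowest Axin1 levels, also had the lowest pattern-removed focal differences of this gene, -0.12 in each, against -0.023 to 0.068 in the other 6 tumors. Against flanks to 5 Mb these differences were -0.031 and -0.074. Low differences in tumors 7 and 8 were not particular to Axin1. On the same scale and against the rest of the chromosome, Arid1a gave -0.11 and -0.12, Ctnnb1 -0.095 and -0.020, and Apc 0.033 and 0.0027. The shared pattern was weaker on these arrays, with slopes of 0.544 and 0.574 against 1.01 to 1.07 in the others, and its part in these values was not tested. Chromosome 17 was divided into 17 and 10 segments in tumors 7 and 8. In tumor 7 the segment with Axin1, 11.4 Mb long at -0.16, began 0.502 Mb before the gene position, next to a segment of 0.279 Mb and 29 probes at -0.52. In tumor 8 Axin1 lay in a segment of 34.1 Mb at -0.045. With the pattern kept, the Axin1 window was below its chromosome in 8 of 8 tumors, by -0.17 ± 0.033 on average (SD, n = 8, limma adjusted p = 8.46e-06). Within 0.05 Mb of the gene the mean level on that scale was 6.06e-05 ± 0.18 (SD, n = 8), with tumor 5 at 0.35 and tumors 7 and 8 at -0.22 and -0.19.

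Apc, the other scaffold of that complex, was lower in tumor 3. Tumor 3 stood at -0.33 (SE 0.021 over 85 probes), tumor 6 at -0.15 and the other 6 tumors between -0.048 and 0.12 with the pattern removed. Tumor 3 was lower than the next, tumor 6, by 0.182. The level of tumor 6 was less certain, with an SE of 0.070 over its probes. Its 0.1 Mb step at 0.25 Mb, which holds 1 probe that stood apart in that tumor (described below), was at -0.63. The part of that probe in the gap was not tested. On the pattern-kept scale tumor 3 was at -0.203, the median was 0.11 and the highest level was 0.17 in tumor 8. The mean over all tumors was -0.041 ± 0.14 (SD, n = 8, limma adjusted p = 0.682) with the pattern removed and 0.067 ± 0.13 (SD, n = 8, limma adjusted p = 0.316) with it kept. The pattern-kept mean passed as higher with the array median at 0 (0.20, limma adjusted p = 0.00337) and with the peak of the probe density at 0 (0.44, limma adjusted p = 7.42e-07).

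The level of chromosome 18 stepped down on opposite sides of Apc in tumors 3 and 4. In tumor 3 a segment from 13541522 to 90744509, 77.2 Mb long, had a mean of -0.30, and the probes before it lay at -0.0012. Apc was 20.9 Mb inside this segment. In tumor 4 the lower segment began after 68129746, beyond Apc, with a mean of -0.35, and the segment that holds Apc lay at 0.036. Across the edge of tumor 3 the distal side minus the proximal side was -0.30 in that tumor and between -0.053 and 0.10 in the other 7. Across the edge of tumor 4 the difference was -0.38 in that tumor and between -0.027 and 0.083 in the other 7. The same steps were -0.38 in tumor 3 and -0.40 in tumor 4 on the pattern-kept scale. There the other 7 tumors lay between -0.16 and -0.025 across the edge of tumor 3. Across the edge of tumor 4 the other 7 lay between -0.056 and 0.013. Both edges were found from these values, so the steps of tumors 3 and 4 are a description. The segments shared the distal end of the chromosome, and Apc lay in the lower segment of tumor 3 alone.

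**Figure D2:**
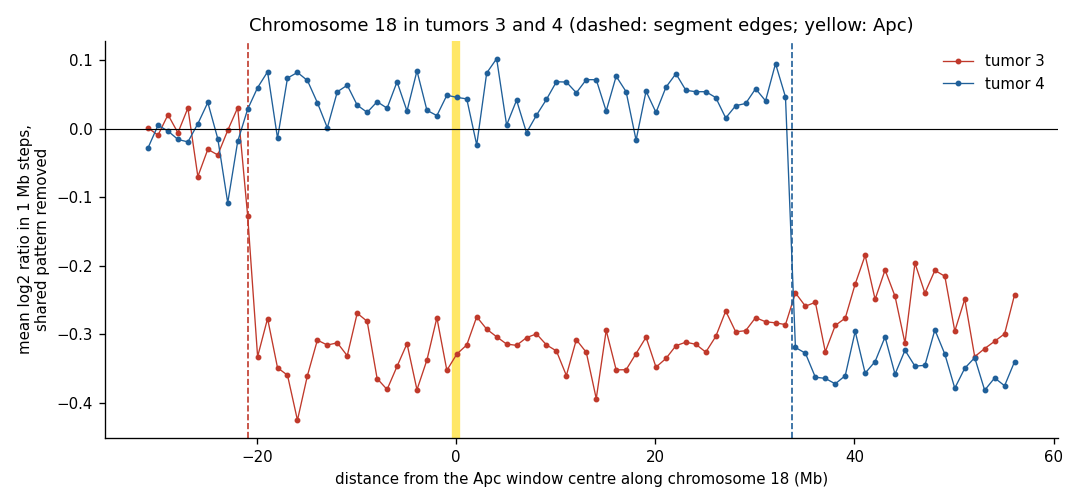
Mean log2 ratio in 1 Mb steps with the shared pattern removed (vertical axis) against distance from the Apc window centre (horizontal axis, Mb) on chromosome 18 in tumors 3 and 4; dashed lines mark the segment edges and the yellow line Apc. Tumor 3 drops 20.9 Mb before Apc and stays low to the chromosome end, and tumor 4 drops only 33.7 Mb beyond Apc.

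The Apc window lay above its chromosome in 8 of 8 tumors with the pattern kept, by 0.10 ± 0.047 on average (SD, n = 8, limma adjusted p = 0.000612). With the median of the probes in place of their mean the difference was 0.011 (limma adjusted p = 0.673). A few bright probes entered that mean. The probe at 34689601 to 34689660, 260 kb from the Apc position, had log2 ratios of 3.36 to 4.51 in 7 tumors and -1.23 in tumor 6. Its reference signal was 70.4 to 122 in those 7 tumors, where the tumor signal was 784 to 2411, and in tumor 6 the tumor signal was 46.5. A second probe at 34657967 to 34658026 stood at 2.22 to 3.13 in all 8. Without the first probe the focal difference was 0.063 (limma adjusted p = 0.0125), and the probes on either side of it had ratios between -0.61 and 0.38.

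Arid1a, the SWI/SNF subunit, had the lowest level of any of the 4 genes. On the pattern-removed scale it stood at -0.62 in tumor 1, -0.39 in tumor 6, -0.204 in tumor 8, -0.16 in tumor 7 and -0.14 in tumor 2. Tumors 3, 4 and 5 lay between 0.015 and 0.081. The standard error over the 99 probes was between 0.016 and 0.026 in each tumor. The same tumors were lowest with the pattern kept, at -0.71 in tumor 1, -0.43 in tumor 6 and -0.25 in tumor 8, and all 8 levels were below 0. Over the 8 tumors the mean was -0.17 ± 0.24 (SD, n = 8, limma adjusted p = 0.359) with the pattern removed and -0.23 ± 0.24 (SD, n = 8, limma adjusted p = 0.0586) with it kept. Neither mean passed the limma test. The two-sided exact sign-flip permutation p was 0.0078 with the pattern kept, the smallest 8 tumors can give, and 0.086 with it removed. The pattern-kept mean passed without tumor 5 (-0.26, limma adjusted p = 0.0464) and turned to 0.14 with the peak of the probe density at 0. The spread between tumors was wider than or equal to that of 78.5% of all windows with the pattern removed.

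The low levels of tumors 1 and 6 differed in extent. In tumor 1 chromosome 4 was a single segment of 9973 probes at -0.67, and the Arid1a window lay 0.048 above the rest of it. In tumor 6 Arid1a lay inside an interstitial segment from 129010831 to 135826183, 6.82 Mb long and with 604 probes, at -0.41. The segments on its sides had means of -0.20 and -0.16, and Arid1a was 2.56 Mb from the nearer edge. Inside this segment minus its 5 Mb flanks, tumor 6 gave -0.27 with the pattern removed and the other 7 tumors 0.010 to 0.073, with no overlap. On the pattern-kept scale tumor 6 gave -0.21 and the other 7 tumors 0.021 to 0.082. The segment was found in tumor 6 from these values, so its own drop is a description, and the other tumors show the same probes without one. Tumor 8 had a longer segment, of 28.9 Mb, at -0.17 around Arid1a. Tumor 7 had 32 segments on chromosome 4, and their edges are not given.

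**Figure D3:**
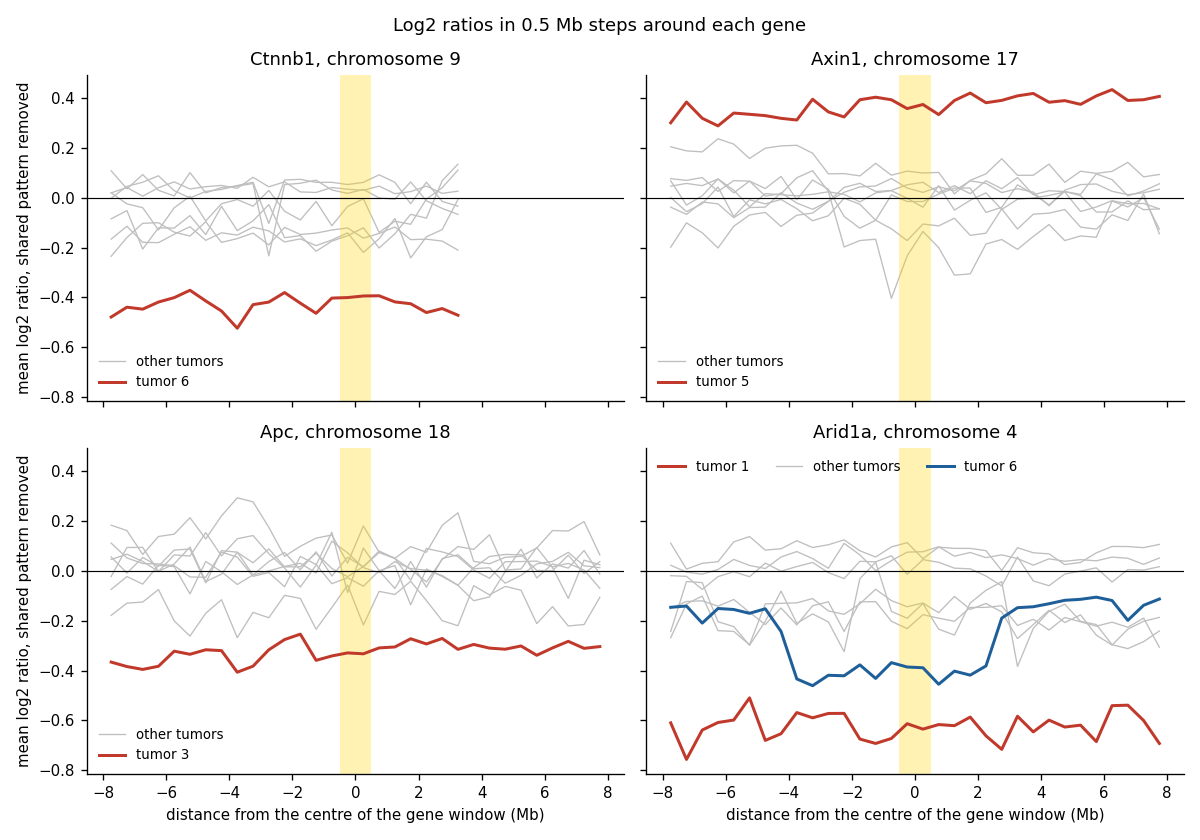
Mean log2 ratio in 0.5 Mb steps with the shared pattern removed (vertical axis) against distance from each gene (horizontal axis, up to 8 Mb on each side where probes exist), with the tumors furthest from 0 in colour, the others in grey and the gene window in yellow. The lines of tumor 6 at Ctnnb1, tumor 5 at Axin1, tumor 3 at Apc and tumor 1 at Arid1a stay at one level across the plot, and tumor 6 at Arid1a drops over 6.82 Mb around the gene.

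Focal differences, the level of a gene window minus that of the rest of its chromosome, were compared over all 4 genes. On the pattern-kept scale they were past 0.2 downwards in 10 of 32 gene-by-tumor pairs and upwards in 1, against 3.00% and 3.38% of all windows. Ctnnb1 gave 7 of the 10, Axin1 2 (tumors 7 and 8) and Arid1a 1 (tumor 6), and the upward one was Apc in tumor 4. Against its flanks Apc in tumor 4 was higher by only 0.074 on this scale. The rest of the chromosome, which includes the lower distal segment of that tumor, was at -0.060, and the difference from it was 0.201. By limma all 4 genes passed, Ctnnb1, Axin1 and Arid1a lower and Apc higher, and Arid1a had the smallest difference, -0.083 ± 0.080 (SD, n = 8, adjusted p = 0.0198). This test called 24.6% of all windows lower and 27.4% higher, 52.0% together, so passing it does not set the 4 genes apart. Without tumor 8 Arid1a no longer passed (adjusted p = 0.0504). After removal of the pattern 0 of 32 focal differences were past 0.2 in either direction, against 1.11% of windows downwards and 1.05% upwards. On that scale limma called 0.00% of window levels and 0.00% of focal differences at an adjusted p under 0.05. At an unadjusted p under 0.05 it gave 318 windows for levels and 0 for focal differences. By construction the subtraction pulls the mean focal difference of a window towards 0, so this test could not have called a shared one. Its lack of focal calls therefore says nothing about the 4 genes. The focal difference nearest to the call size on that scale was -0.17, for Arid1a in tumor 6.

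**Figure D4:**
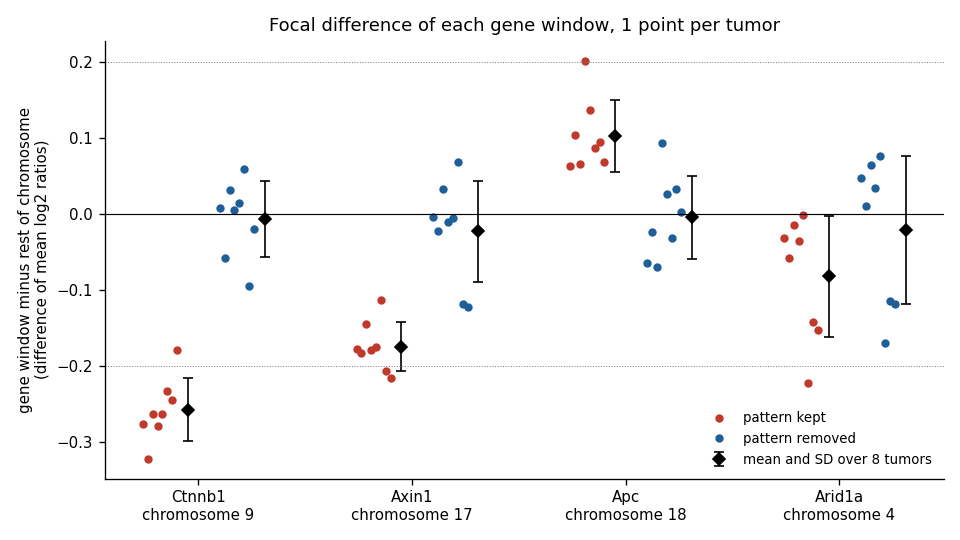
Level of each gene window minus the rest of its chromosome (vertical axis, difference of mean log2 ratios) for the 4 genes, 1 point per tumor, with the shared pattern kept (red) or removed (blue) and the mean and SD over 8 tumors (black). With the pattern kept all 8 tumors lie on one side of 0 for each gene, and with it removed the means lie between -0.023 and -0.0046 with tumors on both sides.

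**Figure D5:**
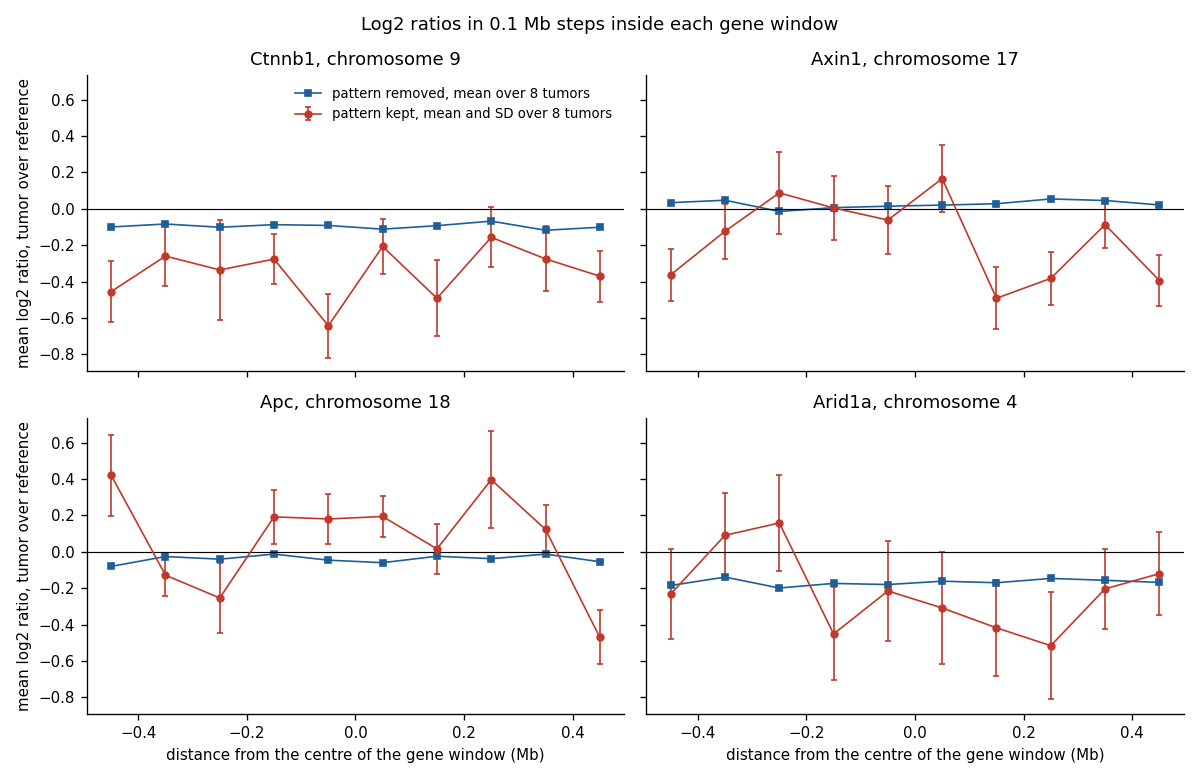
Mean log2 ratio over the 8 tumors in 0.1 Mb steps inside each gene window, with the shared pattern kept (red, bars are the SD over tumors) or removed (blue). With the pattern kept neighbouring steps differ by up to 0.66, as at Axin1, and with it removed the 10 steps of a gene stay within 0.069 of each other.

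The slides, which coincide with the scan times, were compared for level and focal difference of each gene on both scales, 16 comparisons in all. One gave an exact permutation p of 0.0286, the smallest that 4 against 4 tumors allow: the focal difference of Ctnnb1 with the pattern kept was -0.29 ± 0.025 on slide 1 and -0.23 ± 0.036 on slide 2 (SD, n = 4 each). Adjusted over the 16 comparisons its p was 0.457, and the other 15 exact p-values were between 0.14 and 1.0. The Ctnnb1 window was below its chromosome in all 4 tumors of each slide.

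The other genes of these pathways were placed by their chromosome alone, from a list of 107 genes in 8 roles. A gene was counted in a tumor when its chromosome mean was past 0.2, and the counts were the same on both scales. Over all gene-by-tumor pairs, 9.58% were lower and 6.31% higher, against 12.2% and 3.74% for all 21627 protein-coding genes. In 2 or more tumors 19 listed genes (17.8%) were on a lower chromosome and 9 (8.41%) on a higher one, against 26.7% and 3.59% of the protein-coding genes. Genes of 1 chromosome move together here, so these counts follow the chromosomes and are not separate measurements.

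Among 23 Wnt ligands and R-spondins, the proteins that start or strengthen the signal, 4 (17.4%) were on a higher chromosome in 2 or more tumors and 7 (30.4%) on a lower one. The 4 were Wnt1, Wnt7b, Wnt10b and Rspo2, all on chromosome 15, whose mean was past 0.2 in tumors 3, 4, 5, 6 and 8, from 0.28 in tumor 3 to 0.69 in tumor 5 with the pattern kept. Among 15 receptors and co-receptors, Fzd6 was on the same chromosome. Fzd3 is on chromosome 14, which was lower in tumors 6 and 8 and higher in tumor 5, and Lrp6 on chromosome 6, which was lower in tumors 1 and 3. Of 13 inhibitors, Sfrp4, a secreted Wnt antagonist on chromosome 13, was on a lower chromosome in tumors 1 and 6, and 6 more were on a lower one in a single tumor. None of the 13 was on a higher chromosome. In 2 or more tumors, 7.69% of the inhibitors were on a lower chromosome, against 26.7% of all protein-coding genes. For higher chromosomes the share of all protein-coding genes was 3.59%. The share of all genes lower in any tumor was not computed, so the inhibitor counts do not set them apart.

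Of 10 genes of β-catenin destruction and signal relay, Dvl1, on chromosome 4 like Arid1a, and Amer1, on chromosome X, were on a lower chromosome in 2 tumors each. Gsk3b, which encodes a kinase of the destruction complex, and Dvl3 were on chromosome 16, higher in tumor 5. Of 8 nuclear partners, Tcf7l1 on chromosome 6 was lower in 2 tumors, and Bcl9l and Pygo1 share chromosome 9 with Ctnnb1. Of 8 genes listed here as β-catenin targets of liver, Myc on chromosome 15 was on a higher chromosome in 5 tumors. In 2 or more tumors 0 of the 8 were on a lower one. Whether β-catenin acts on any of them in these tumors was not tested. Glul, which encodes glutamine synthetase, was on a chromosome that was lower in tumor 3 alone.

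Among 21 SWI/SNF subunits other than Arid1a, Arid2 and Smarcd1 on chromosome 15 were on a higher chromosome in 5 tumors and Dpf3 on chromosome 12 on a lower one in 4. Pbrm1, on chromosome 14, and Brd9, on chromosome 13, were each on a lower one in 2 tumors. The ATPases Smarca4 on chromosome 9 and Smarca2 on chromosome 19 were on a lower chromosome in 1 and 0 tumors. Of 9 other chromatin tumor suppressors, Kmt2d on chromosome 15 was on a higher chromosome in 5 tumors, and Bap1 on chromosome 14 and Kdm6a and Atrx on X on a lower one in 2 each. The tumor with the most of the 107 listed genes on lower chromosomes was tumor 3 with 31, followed by tumor 6 with 23, tumor 8 with 15 and tumor 1 with 12. Of all autosomal 1 Mb windows, 30.3%, 32.5%, 16.1% and 20.3% were past 0.2 downwards in these tumors with the pattern kept. That share is by window and the counts by chromosome, and the ranking describes the tumors rather than the listed genes. Tumors 2, 5 and 7 had 0.

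Each gene's level over the 8 tumors was most like that of the autosomes that changed in the same tumors, given here as a description with the pattern removed. The highest Pearson correlations with other autosomes were 0.86 for Ctnnb1 with chromosome 8, 0.82 for Axin1 with chromosome 16, 0.81 for Apc with chromosome 7 and 0.94 for Arid1a with chromosome 13. The next were chromosome 2 for Ctnnb1 (0.61), chromosome 15 for Axin1 (0.74), chromosome 6 for Apc (0.72) and chromosome 12 for Arid1a (0.82). The points share an array and its centring, and a single tumor leads 3 of these pairs: tumor 6 for chromosomes 8 and 9, tumor 5 for chromosomes 16 and 17, and tumor 3 for chromosomes 7 and 18. Arid1a and chromosome 13 were low in both tumors 1 and 6.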

How the data were processed

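The members and gene lists were chosen with earlier results of these data known. Images were extracted with Agilent Feature Extraction 10.7.3.1, per the submitters' processing notes. The deposited processed signals are intensity values, background-subtracted and dye-normalized within each array, and the deposited spot and background medians are unprocessed intensity, per the file headers. The authors' deposited log ratios are log10 of red (tumor) over green (reference), on the arrays and, rounded, in the series table. Quality marks deposited with each spot are 0 or 1 (other). Probe positions are on mm9, per the file headers.

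Log2 ratios of the processed signals were computed for all spots that are not controls, leaving out outlier spots (115 to 221 of 174305 per array) and averaging spots of a probe. Saturated spots were kept. Each array was centred on the commonest mean (Gaussian kernel SD 0.04) of autosomal 1 Mb windows with at least 20 probes. For the pattern-removed scale, the median over the other 7 tumors of each probe's ratio, after subtracting chromosome medians, was scaled to the array by a slope and subtracted, and the array was centred again. Window means were tested against 0 with limma 3.58.1 in R 4.3.3 (intercept only, Benjamini-Hochberg over 2369 windows and the 4 gene windows), and with two-sided exact sign-flip permutation tests. Slides were compared by exact permutation over 70 splits, two-sided. Segments came from circular binary segmentation written in Python 3.11.15 (numpy 2.4.6, pandas 2.3.3, scipy 1.17.1, numba 0.67.0), with a split z of 7, at least 10 probes, values limited to 4 noise SD and steps under 0.12 merged. The computations were tested on simulated data. Plots used matplotlib 3.10.9. The segmentation, the chromosome 18 edges, the comparison inside and outside the Arid1a segment, and the Apc probes were chosen after values were seen. Alternatives covered the centring, shared pattern, window width, median of probes, background correction, deposited table, dim or outlier spots, slide, tumors left out, flanks as reference and call size. The 4 genes are given in full, with up to 4 genes per pathway list by how many tumors had their chromosome past 0.2 and the 2 most alike autosomes per gene. Bcl9l, Pygo1, Glul, Brd9, Smarca4 and Smarca2 were named outside that rule after their values were seen.

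The 8 tumors come from separate mice and form 1 group. Gene names and neighbours are those of RefSeq on GRCm38.p6, by symbol for all 107 listed genes, and no coordinates were taken from that build. No column of values was left out of the sample map.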

Additional observations from a re-analysis of the deposited data

How the results depend on the processing

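Of 344 recomputed values, 261 kept their direction and side of the threshold (for counts, stayed within 1.5 times), and the cause of a change was not tested. Some of the 261 could not change. Another centring cannot alter a focal difference or its count, and the slide as covariate leaves each mean as it is. The number 261 is therefore not a measure of how stable the results are. The settings with the pattern removed that go beyond the planned one, and the left-out Apc probe, were chosen after seeing the data. Removing the shared pattern ended each focal call, as it does by construction for a difference that most tumors share. The focal difference of Ctnnb1 went to -0.0072, that of Axin1 to -0.023, of Arid1a to -0.022 and of Apc to -0.0046. With flanks to 5 Mb as the reference on the pattern-removed scale the focal differences of Ctnnb1, Axin1, Arid1a and Apc were 0.0047, -0.013, -0.0063 and -0.011. By the median of probes there they were -0.010, -0.019, -0.026 and -0.0050, without tumors 7 and 8 0.0097, 0.0094, 0.010 and -0.012, and Apc without its highest probe was at -0.00074. The levels on that scale were -0.096 for Ctnnb1, 0.023 for Axin1 and -0.041 for Apc. They were -0.099, 0.028 and -0.041 by the median of probes, -0.10, 0.087 and -0.077 without tumors 7 and 8, and -0.037 for Apc without its highest probe.

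With the pattern kept, centring on the peak of the probe density gave levels of 0.024 for Ctnnb1, 0.246 for Axin1, 0.435 for Apc and 0.14 for Arid1a, of which Axin1 and Apc passed as higher, and centring on the array median gave 0.0098 for Axin1 and 0.199 for Apc, which then passed. The median of probes gave -0.013 for the Apc level, 0.011 for its focal difference and -0.25 for the Arid1a level, which passed. A 0.25 Mb half-width took the levels of Apc (0.16) and Arid1a (-0.27) past the threshold. At 0.05 Mb the Axin1 level was 6.06e-05, the Axin1 focal difference -0.050 and that of Arid1a 0.00084, and at 1 Mb the last was -0.044. Without tumors 7 and 8 the Ctnnb1 level (-0.38, limma adjusted p = 0.0600) and the Arid1a focal difference (-0.061) no longer passed. Leaving out each tumor in turn gave levels of -0.37 to -0.30 for Ctnnb1, -0.17 to -0.10 for Axin1, 0.052 to 0.11 for Apc and -0.26 to -0.16 for Arid1a. The focal differences were then -0.27 to -0.25, -0.18 to -0.17, 0.088 to 0.11 and -0.094 to -0.063.

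Counts of levels past 0.2 with the pattern kept were 13 lower and 0 higher. At a call size of 0.1 they were 20 and 5, and at 0.3 5 lower. With the array median at 0 they were 7 and 6, with the peak of the probe density at 0 1 and 19, and with the pattern removed 5 and 1. The higher count was 4, 5 and 1 for half-widths of 0.05, 0.25 and 1 Mb and 1 with normexp. With the pattern removed, a call size of 0.1 gave 13 lower and 3 higher, and leaving out each tumor gave 3 to 5 lower and 0 to 1 higher. Focal counts with the pattern kept were 10 lower and 1 higher. A call size of 0.1 gave 19 and 3, 0.3 gave 1 and 0, removing the pattern 0 and 0, the 1 Mb half-width 3 and 0, the median of probes 5 and 0, flanks as reference 6 and 0, and leaving out each tumor 8 to 9 lower and 0 to 1 higher. The higher focal count was 4 at 0.05 and at 0.25 Mb, and 0 with normexp, without dim spots and without the highest Apc probe. With the pattern removed, a call size of 0.1 gave 5 lower focal differences. The planned GC correction was not run, since neither probe sequences nor a genome of this build were used. No paired analysis was possible because the 8 tumors form 1 group. Tumors 7 and 8 had weaker shared patterns, with slopes of 0.544 and 0.574 against 1.01 to 1.07 in the others. The median of signal over background was at least 4.17 on each array.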

Other observations

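Of the 85 probes in the Apc window, 1 stood apart in tumor 6. Its log2 ratio was -1.23 there and at least 3.36 in each of the other 7 tumors, while the second brightest probe of the window was at 2.22 in tumor 6 and at 2.32 or above in the others. Removing the first probe left 5 gene-by-tumor levels past 0.2 downwards and 1 upwards with the pattern removed, as with it.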
